A study of Mus musculus with 24 samples.

Results

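The olfactory receptor (Olfr) genes of mouse chromosome 2 were followed through maps of lamin B1, lamin A/C and LAP2alpha binding in fibroblasts. The 286 protein-coding genes with symbols starting Olfr on this chromosome were taken from a gene annotation of build mm9, out of 22208 protein-coding genes of chromosomes 1 to 19 and X. They made up 25.7% of the 1113 Olfr genes of the annotation. A gap over 1 Mb between neighbouring Olfr genes began a new cluster, which gave 3 clusters of 28, 221 and 37 genes. A gene was counted as held by a protein when 50% or more of its length lay under domains that the authors had called with the enriched domain detector (EDD), a caller for wide regions of enrichment.

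Olfr genes encode odorant receptors, G protein-coupled receptors that olfactory sensory neurons use to bind volatile compounds. They form the largest gene family of the mouse, stand in tandem arrays on many chromosomes, and are silent in most tissues; a mature olfactory neuron transcribes a single receptor allele. Lamins are the filament proteins of the nuclear lamina. Lamin B1 stays at the nuclear envelope, where it contacts gene-poor, inactive chromatin, while lamin A/C is found both there and in the nuclear interior, where LAP2alpha, a soluble isoform of the lamina-associated polypeptide 2 encoded by Tmpo, binds it.

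Chromatin immunoprecipitation was done in immortalized mouse dermal fibroblasts (imMDF) that were either Lap2alpha +/+ (WT) or Lap2alpha -/- (KO), the latter without the LAP2alpha isoform of Tmpo, and chromatin was sheared by 12 or by 30 cycles of sonication. Antibodies were directed at LAP2alpha, at the N terminus of lamin A/C (N18), at its C-terminal Ig fold (3A6) and at lamin B1. Region lists of 12 of the 24 samples were analysed, 8 from WT and 4 from KO cells: all 4 antibodies in WT and both lamin A/C antibodies in KO, at each sonication. Cells of both genotypes were fixed with formaldehyde and received no treatment. Each group held 1 library, so no difference between groups could be tested, and counts are set beside the same count over all protein-coding genes. Neighbouring Olfr genes shared domains and were not independent, so no interval is given with their percentages. Reads in called islands ran from 3989494 (3A6, KO, 12 cycles) to 13601739 (N18, KO, 30 cycles). They count reads in called regions only and do not measure sequencing depth, which the lists do not give. The study reported sequenced and mapped reads of each sample in its supplement, and those counts were not used here. WT and KO libraries of 1 lamin A/C antibody and sonication shared a sequencing lane, as did the lamin B1 libraries, whereas for lamin A/C and LAP2alpha each sonication had a lane of its own, so that sonication and lane cannot be told apart there. Region lists hold no expression values, so neither fibroblast markers nor the deletion could be checked.

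Cluster 1 (chr2:36232298-37188253) ran over 0.956 Mb from Olfr338 to Olfr368. Cluster 2 (chr2:85171054-90122730) was the largest of the 3, with 4.95 Mb from Olfr987 to Olfr1272, and cluster 3 (chr2:111070975-111997157) covered 0.926 Mb from Olfr1275 to Olfr1318. Together they took 3.76% of the chromosome. They were dense arrays of short genes. Cluster 2 had 44.6 Olfr genes per Mb, cluster 3 had 39.9 and cluster 1 had 29.3, while the genome had 8.42 protein-coding genes per Mb. The median Olfr gene was 951 bp long, against 15526.5 bp over all protein-coding genes. G+C content was 39.2%, 37.0% and 37.6% in clusters 1, 2 and 3, against 41.8% in the genome. In cluster 2, 148 of the genes lay on the minus strand and 73 on the plus strand, whereas in cluster 1 the plus strand held 20 of 28.

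All 286 genes had an annotated coding sequence, with a median of 939 bases, and 249 of them (87.1%) encoded the residues DRY, the motif at the inner end of a membrane segment by which many receptors of this class couple to G proteins. Windows of 63 coding bases around the motif are shown for receptors of the 3 clusters. They were placed on the motif and include pairs picked for identity, so they do not measure how alike the receptors are. The first gene of each cluster comes first. It is followed by the pair with the highest coding identity and the same call in every library, Olfr1049 and Olfr1051, and by the most similar pair with different calls, Olfr1250 and Olfr1252. Capitals mark the codons for DRY, and positions are in mm9.
Olfr338, chr2:36232625-36232687, plus strand: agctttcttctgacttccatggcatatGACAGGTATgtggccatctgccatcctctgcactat
Olfr987, chr2:85171658-85171720, minus strand: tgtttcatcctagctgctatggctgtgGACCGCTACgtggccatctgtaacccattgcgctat
Olfr1275, chr2:111071553-111071615, minus strand: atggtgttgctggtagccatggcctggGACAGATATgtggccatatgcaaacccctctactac
Olfr1049, chr2:86095453-86095515, minus strand: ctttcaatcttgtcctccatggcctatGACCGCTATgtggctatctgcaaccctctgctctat
Olfr1051, chr2:86116247-86116309, minus strand: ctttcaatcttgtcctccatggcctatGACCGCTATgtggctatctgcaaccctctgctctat
Olfr1250, chr2:89497207-89497269, minus strand: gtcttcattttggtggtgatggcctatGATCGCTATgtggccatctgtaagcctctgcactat
Olfr1252, chr2:89561877-89561939, minus strand: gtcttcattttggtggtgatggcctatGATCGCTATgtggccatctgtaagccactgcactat

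Olfr1049 and Olfr1051 were identical over 98.7% of aligned coding bases and differed at 0 of the 63 bases shown. Olfr1250 and Olfr1252 were identical over 96.8% and differed at 1 of the 63. Over all 40755 pairs the median identity was 61.2%, and the median Olfr gene shared 87.6% with its closest relative, which lay in the same cluster for 284 of 286 genes. A relative with 95% or more identity existed for 57 genes. The authors dropped reads with a mapping quality under 20, which removes reads that fit several copies equally well, and how far this lowered the signal over these genes was not tested.

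The bases upstream of Olfr genes also stood apart in composition. The 250 bases before the annotated start had a median G+C content of 31.6% over the 286 genes and 54.0% over all protein-coding genes. TAATTA, the core that homeodomain factors such as Lhx2 and Emx2 recognise, was found in 67 of these windows (23.4%), against 4.59% of all protein-coding genes. CCCNNGGG, the core of O/E (EBF) sites, was found in 7 (2.45%), against 13.1%. Both motifs read the same on either strand and do not overlap each other, and only 107 of the 286 genes had an annotated 5′ untranslated stretch, so that for the others the window precedes the first codon. In the 107, TAATTA was found in 24.3% and CCCNNGGG in 5.61%. A match is a description of letters and not a bound site. TAATTA holds only A and T, and CCCNNGGG is mostly C and G. No share at equal G+C content was computed, so whether either difference goes beyond base composition was not tested. The upstream windows of the first gene with such a stretch in each cluster, all 3 of them inside lamin B1 and 3A6 domains after 30 cycles in WT, are shown with TAATTA in capitals.
Olfr342, chr2:36382658-36382907, plus strand: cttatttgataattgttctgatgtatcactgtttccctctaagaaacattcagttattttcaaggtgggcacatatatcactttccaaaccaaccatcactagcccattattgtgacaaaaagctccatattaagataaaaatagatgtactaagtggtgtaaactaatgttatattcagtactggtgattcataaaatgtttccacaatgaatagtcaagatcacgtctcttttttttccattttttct
Olfr987, chr2:85179453-85179702, minus strand: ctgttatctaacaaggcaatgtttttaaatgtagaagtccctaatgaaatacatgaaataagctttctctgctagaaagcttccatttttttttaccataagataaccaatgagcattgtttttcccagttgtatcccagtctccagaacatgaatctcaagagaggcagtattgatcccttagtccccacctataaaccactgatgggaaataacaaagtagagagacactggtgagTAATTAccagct
Olfr1275, chr2:111071995-111072244, minus strand: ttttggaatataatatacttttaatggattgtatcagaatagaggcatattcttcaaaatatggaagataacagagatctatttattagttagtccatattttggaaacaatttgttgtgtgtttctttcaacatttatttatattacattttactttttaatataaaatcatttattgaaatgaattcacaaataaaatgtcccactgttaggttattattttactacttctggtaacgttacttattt

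Olfr987 held 1 copy of TAATTA close to its start, and Olfr342 and Olfr1275 held 0. CCCNNGGG was absent from the 3 windows.

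Lamin B1 held nearly all Olfr genes of the chromosome at both sonications. After 12 cycles it held 274 of 286 (95.8%), against 7.78% of all protein-coding genes, and after 30 cycles 281 (98.3%), against 16.8%. By cluster the share was 96.4%, 95.02% and 100% after 12 cycles, and 96.4%, 98.2% and 100% after 30. Only 1.9% of the other protein-coding genes of chromosome 2 were held after 12 cycles and 3.5% after 30. Shares for Olfr genes elsewhere differed widely between chromosomes. Chromosome 9 had 91.5% after 12 cycles and 96.9% after 30, and chromosome 7 had 25% and 92.9%. Chromosome 11 had 0% and 32.1%, and chromosome 4 had 0% at both sonications. Over the 827 Olfr genes of all other chromosomes the shares were 37.5% and 71.9%. The genes were held at both sonications in 274 cases (background 7.18%) and after 30 cycles alone in 7 (background 9.58%), namely Olfr987, Olfr988, Olfr992, Olfr993, Olfr1269, Olfr32 and Olfr1270.

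Each cluster lay under a single lamin B1 domain, which left out a few genes at the ends of clusters 1 and 2. In cluster 2 it spanned chr2:85261001-89925000 after 12 cycles, 4.66 Mb long and the tenth longest of 279 domains in that library, and chr2:85063001-90013000 after 30 cycles, 4.95 Mb. The 30-cycle domain began 108 kb before Olfr987 and stopped 110 kb short of the end of Olfr1272, so that it left out the 4 rightmost genes, Olfr1506, Olfr142, Olfr1271 and Olfr1272. In cluster 1 the lamin B1 domains spanned chr2:36146001-37158000 and chr2:36179001-37180000, and each left out the last gene, Olfr368. In cluster 3 they spanned chr2:110990001-112013000 and chr2:110297001-112046000, and covered the cluster whole. The EDD score per Mb of the 30-cycle domain of cluster 2 was 16.6, against a median of 11.2 over the domains of that library. After 12 cycles it was 7.51, against a median of 8.92, and with domains above the median score per Mb alone lamin B1 then held 37 receptors (12.9%). The share of all protein-coding genes under that setting was not computed. The clusters, 3.76% of the chromosome, made up 23.8% of its lamin B1 domain length after 12 cycles and 16.2% after 30.

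**Figure D1:**
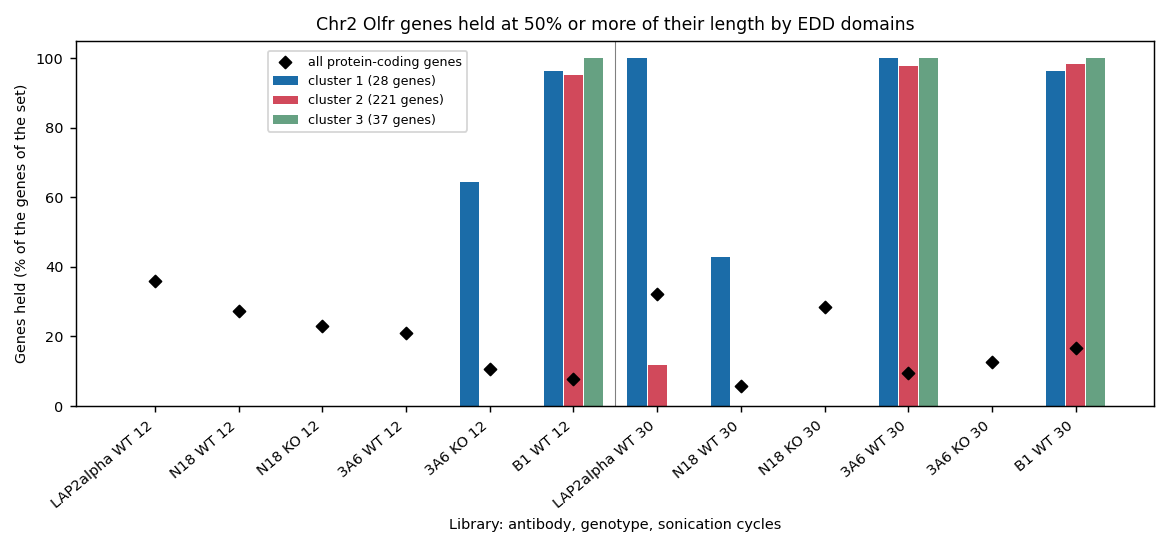
Percent of the Olfr genes of each chr2 cluster (bars) and of all protein-coding genes (diamonds) held at 50% or more of their length by EDD domains, in each of the 12 libraries, with 12 cycles left of the grey line and 30 cycles right of it. Lamin B1 held 95.02% to 100% of every cluster at both sonications and 3A6 held 97.7% to 100% in WT after 30 cycles, while 3A6 in KO after 30 cycles held 0.

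With lamin A/C nearly all receptors were found under 3A6 domains in WT after 30 cycles. There 3A6 held 281 of 286 Olfr genes (98.3%), against 9.40% of all protein-coding genes and 2.2% of the other genes of the chromosome. After 12 cycles in WT it held 0, against 21.1%. Hence 281 genes were held after 30 cycles alone (background 8.39%) and 0 after 12 cycles alone (background 20.1%) or at both (background 1.01%). The domain over cluster 2, chr2:85173001-89980000, was 4.81 Mb long, the twentieth longest of 363. Its left edge fell inside Olfr987, 76.8% of which it covered, the one gene of the 286 that any domain edge cut. Its score per Mb was 2.90, against a median of 6.64 over the domains of the library, whereas the domains over clusters 1 (chr2:36212001-37191000) and 3 (chr2:110451001-112035000) reached 9.06 and 6.93. With domains above the median score per Mb alone, a setting chosen after seeing the data, 3A6 held 65 genes, those of clusters 1 and 3. The share of all protein-coding genes held by such domains was not computed. Olfr1270 and the 4 genes to its right, Olfr1506, Olfr142, Olfr1271 and Olfr1272, were not held.

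In KO cells after 30 cycles 3A6 held 0 of the 286 Olfr genes, against 12.6% of all protein-coding genes. Thus 281 genes were held in WT alone (background 5.75%), 0 in both genotypes (background 3.65%) and 0 in KO alone (background 8.94%). Not 1 base of the 3 clusters lay under a 3A6 domain in that library, against 6.69 Mb (97.9%) in WT. The nearest 3A6 domains in KO were 7.85 Mb to the left of cluster 1, 56.8 Mb to the left and 42.7 Mb to the right of cluster 2, and 20.8 Mb to the right of cluster 3. Over the whole chromosome 3A6 domains covered 24.99 Mb in KO and 34.3 Mb in WT. Reads in islands were 7927688 in KO and 8187172 in WT over the genome, and 74160 and 29966 on chromosome 2. Of the other chr2 genes, 13.9% were held in KO and 2.2% in WT. With 1 library a genotype, the spread between libraries of the same genotype is not known.

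The Olfr clusters shared this with other lamin B1 domains of the chromosome. Of its 27 lamin B1 domains after 30 cycles, 3 held Olfr genes, and 3A6 covered these to between 90.6% and 97.1% in WT and 0% in KO. Among the 24 without Olfr genes, 9 were covered to 50% or more in WT alone, 7 in both genotypes, 2 in KO alone and 6 in neither. The 3 Olfr domains stood in a run of 13 neighbouring lamin B1 domains, chr2:36179001-123904000, of which 9 were covered to 50% or more in WT and 0 of which touched a 3A6 domain in KO. On either side of this run 3A6 domains were present in KO. On the left they covered lamin B1 domains 2, 3 and 4 of the chromosome to 92.4%, 100% and 40.2% and domain 1 to 0%. On the right they covered domains 18 and 22 to 55.0% and 75.9%, left out domains 19 to 21 and covered the last 5 whole.

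**Figure D2:**
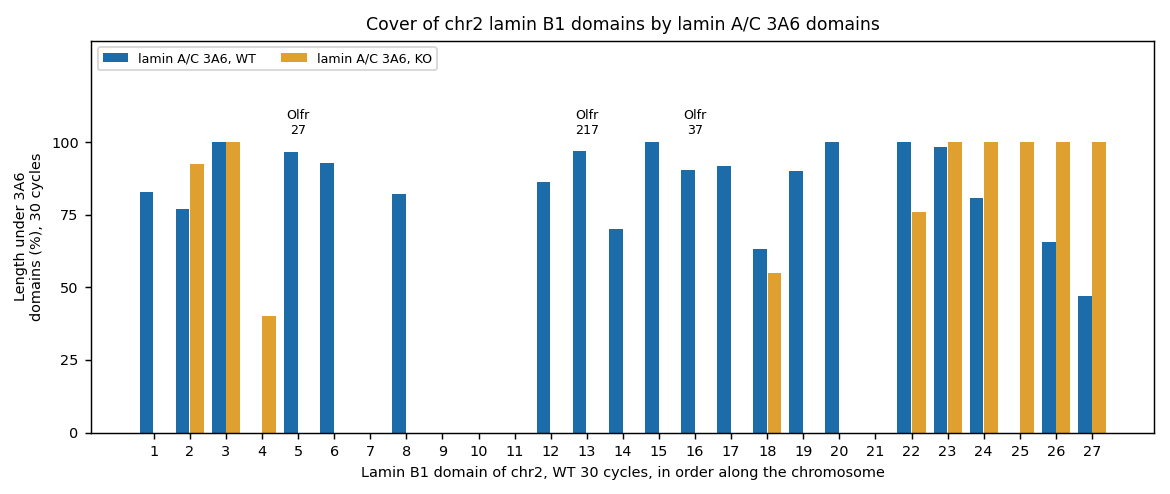
Percent of the length of each of the 27 lamin B1 domains of chr2 (WT, 30 cycles, in order along the chromosome) that lay under lamin A/C 3A6 domains after 30 cycles, in WT and in KO. The domains with 27, 217 and 37 Olfr genes (numbers above the bars) stand at positions 5, 13 and 16, within a stretch from 5 to 17 without 3A6 cover in KO.

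Among genes that lamin B1 held after 30 cycles, 3A6 in WT held 280 of the 281 chr2 Olfr genes and 32 of the 54 other chr2 genes, and in KO 0 and 17. For the 595 Olfr genes of other chromosomes inside lamin B1 domains the counts were 521 in WT and 276 in KO, and for the 2791 other genes of those chromosomes 1125 (40.3%) and 927 (33.2%). Loss of every Olfr call in KO was therefore seen on chromosome 2 but not over the family as a whole. Chromosome 7, with 240 Olfr genes, had 179 held by 3A6 in WT and 111 in KO after 30 cycles, and chromosome 9, with 129, had 113 and 32. On chromosome 16 the counts were 33 and 0 of 36 genes, and on chromosome 19 they were 42 and 0 of 65. On chromosome 1 they were 6 and 0 of 28, and on chromosome 6 they were 1 and 0 of 29. Chromosomes 4 and 17 went the other way, with 4 in WT and 13 in KO of 24, and 27 and 36 of 49.

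**Figure D3:**
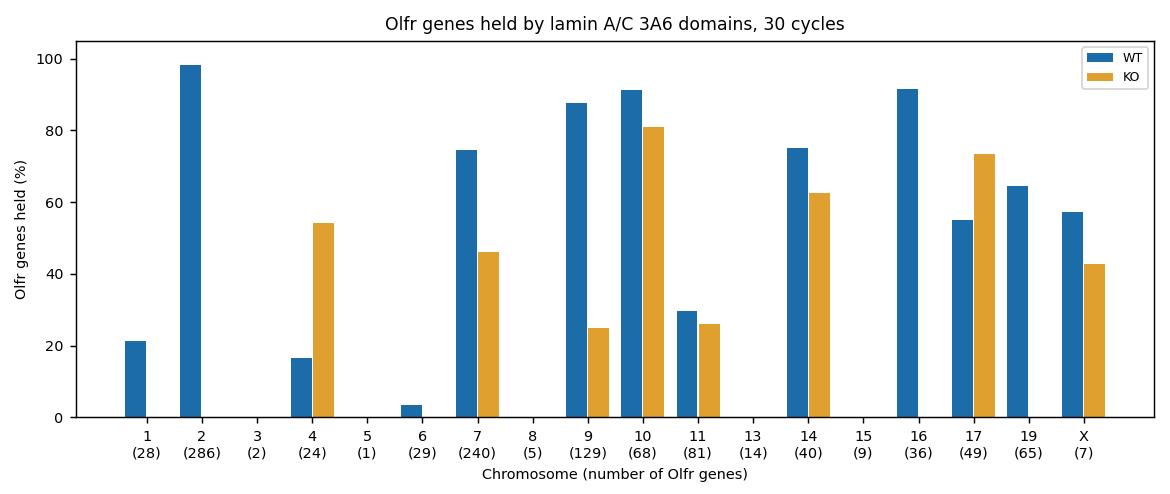
Percent of the Olfr genes of each chromosome (number of genes in brackets) held by lamin A/C 3A6 domains after 30 cycles, in WT and in KO. Chromosome 2 went from 98.3% to 0, chromosomes 1, 6, 16 and 19 also reached 0 in KO, and chromosomes 4 and 17 were higher in KO.

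In KO 3A6 called part of cluster 1 at the other sonication. After 12 cycles in KO it held 18 of 286 genes (6.3%), against 10.7% of all protein-coding genes, and all 18 lay in cluster 1, where they were 64.3% of the 28 genes, from Olfr346 to Olfr364-ps1. In WT after 12 cycles it held 0 of the 28. The 18 genes were thus held in KO alone (background 5.00%) and, between sonications of KO, after 12 cycles alone (background 5.47%). As 6.3% of the 286 receptors they lay near both shares, so no gain over the receptors as a set is read from them. The domain was 0.528 Mb long (chr2:36520001-37048000), the 248th longest of 328, with a score per Mb of 12.26 against a median of 13.6. Clusters 2 and 3 had no 3A6 domain after 12 cycles in either genotype.

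Antibody N18 held few of the receptors. After 12 cycles it held 0 in WT, against 27.4% of all protein-coding genes, and 0 in KO, against 23.1%. In WT after 30 cycles it held 12 (4.2%), against 5.89%, all in cluster 1 from Olfr353 to Olfr366 under chr2:36740001-37180000, a domain of 0.44 Mb. In KO after 30 cycles it held 0, against 28.5%. So 12 genes were held in WT alone (background 1.76%) and 0 in KO alone (background 24.4%), and 12 were held after 30 cycles alone in WT (background 2.71%). The domains over cluster 1 of N18 in WT after 30 cycles, of 3A6 in KO after 12 and of lamin B1 at both sonications had EDD scores, not divided by length, below the median of their libraries, and 0 genes of cluster 1 were held there when domains above the median alone were counted. The 12 neighbours called by N18 were the longest run of receptors called in WT and not in KO with both lamin A/C antibodies at 1 sonication.

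LAP2alpha itself held 0 of the receptors after 12 cycles, against 35.9% of all protein-coding genes and 43.3% of the other chr2 genes. After 30 cycles it held 54 (18.9%), against 32.3% of all protein-coding genes and 56.6% of the other chr2 genes. The 54 were 28 of 28 genes in cluster 1 and 26 of 221 (11.8%) in cluster 2, and were held after 30 cycles alone (background 12.1%). Cluster 1 lay within a LAP2alpha domain of 21.3 Mb (chr2:17270001-38610000) that reached 18962 kb beyond the cluster on its left. The score per Mb of this domain was 8.33, just below the library median of 8.36. With domains above that median alone the 28 genes of cluster 1 were therefore not held. In cluster 2 the domain chr2:84535001-85426000 took in the first 7 genes, Olfr987 to Olfr996, and chr2:89529001-90013000 took in 19 genes near the right end, Olfr1252 to Olfr1270. The EDD scores of the 2 domains were below the median of the library, and with domains scored above it alone LAP2alpha held 0 genes of cluster 2. Per Mb their scores were 9.40 and 10.1, above the median of 8.36. The 4 genes without any call, Olfr1506, Olfr142, Olfr1271 and Olfr1272, lay between that domain and the next, which began 0.110 Mb to the right of the cluster. The edge at 89529001 lay between Olfr1250 and Olfr1252, the pair of close relatives with different calls: LAP2alpha covered 0% of Olfr1250 and 100% of Olfr1252 after 30 cycles, while lamin B1 and WT 3A6 covered both whole.

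**Figure D4:**
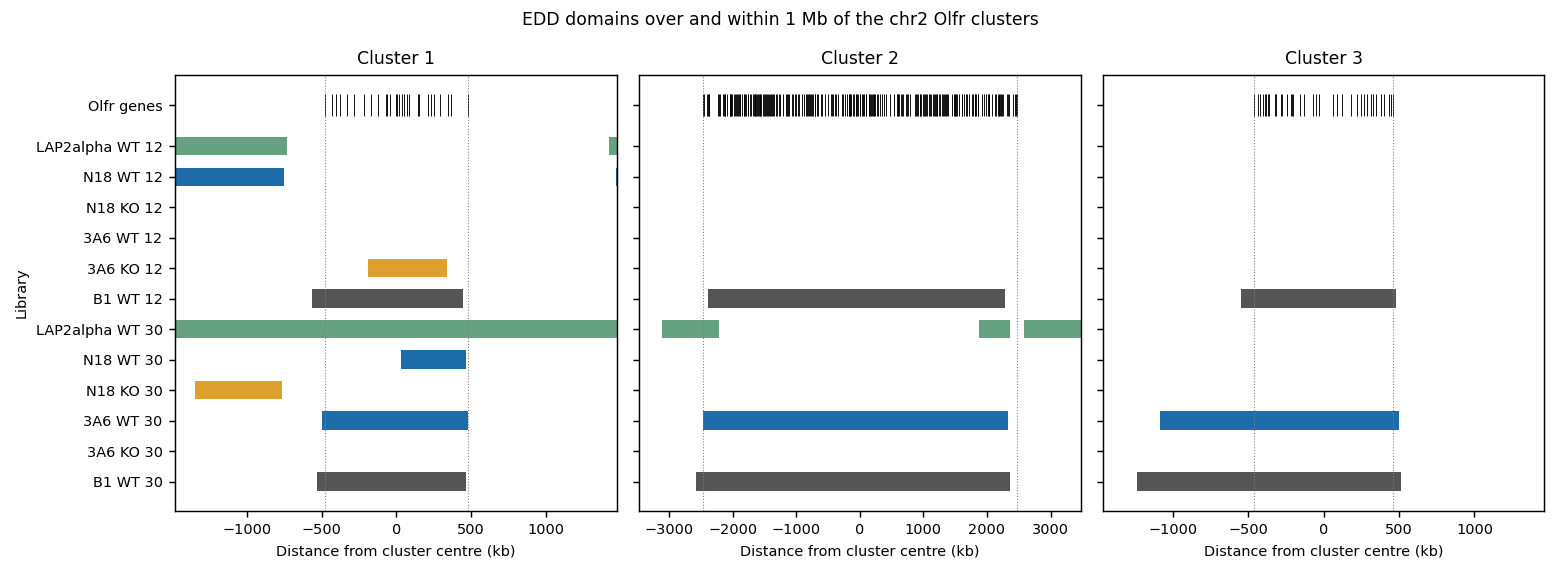
EDD domains of the 12 libraries (rows) over each Olfr cluster and the 1 Mb on either side, against distance from the cluster centre in kb, with LAP2alpha in green, lamin A/C WT in blue, lamin A/C KO in orange and lamin B1 in grey. Black ticks are Olfr genes and dotted lines the cluster limits. Lamin B1 and WT 3A6 (30 cycles) domains ended within 198 kb of the limits of clusters 1 and 2, and LAP2alpha (30 cycles) covered cluster 1 and stretches near both ends of cluster 2.

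Taken gene by gene, the 12 calls fell into 9 patterns. Patterns were counted over the receptors only, so how common each is among all protein-coding genes is not known. The commonest, held by lamin B1 at both sonications and by 3A6 in WT after 30 cycles and by nothing else, comprised 228 genes (79.7%), including all 37 of cluster 3. Olfr1049 had this pattern: its length was covered to 100% in those 3 libraries and to 0% in each of the other 9. A further 26 genes had these 3 calls and LAP2alpha after 30 cycles, 7 of them in cluster 1, from Olfr338, and 19 in cluster 2. Cluster 1 was the most varied. Its 10 genes from Olfr353 to Olfr364-ps1, among them Olfr354 and Olfr355, were held in 6 libraries. Olfr353 was covered to 100% by lamin B1 at both sonications, by LAP2alpha, WT N18 and WT 3A6 after 30 cycles and by KO 3A6 after 12, and to 0% in the other 6 libraries. In the same cluster, 8 from Olfr346 to Olfr352 were held in 5, and so were Olfr365 and Olfr366. Its last gene, Olfr368, was held in 2, LAP2alpha and WT 3A6 after 30 cycles. In cluster 2 the most calls were 4, first at Olfr994, Olfr995 and Olfr996, and 6 genes near its edges (Olfr987, Olfr988, Olfr992, Olfr993, Olfr1269 and Olfr32) lacked the 12-cycle lamin B1 call but had LAP2alpha after 30 cycles. Olfr1270 was held in 2 libraries, LAP2alpha and lamin B1 after 30 cycles. Genes of cluster 3, from Olfr1275, Olfr1276 and Olfr1277 on, did not differ in any call.

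Genes beside the clusters differed from the receptors. Within 1 Mb of cluster 1 there were 19 other protein-coding genes. Lamin B1 held 0 of them at either sonication, and 3A6 in WT after 30 cycles held 0, while LAP2alpha after 30 cycles held all 19 and LAP2alpha and WT N18 after 12 cycles 7 each. The nearest, Ptgs1, which encodes cyclooxygenase 1, 125 kb to the left, and Pdcl, which encodes a phosducin-like chaperone partner, 17.3 kb to the right, were held by LAP2alpha after 30 cycles and by no other. Inside or within 1 Mb of cluster 2 there were 49, of which LAP2alpha after 30 cycles held 41. Lamin B1 after 12 cycles and WT 3A6 after 30 cycles held 3, all inside the cluster: 4833423E24Rik, the longest of them at 35431 bp, and Pramel7 and Pramel6, which belong to the PRAME-like family. The fourth gene inside, Gm4222, was held by lamin B1 and LAP2alpha after 30 cycles. Lrrc55 on the left, a gene for an auxiliary subunit of a potassium channel, and Ptprj on the right, a receptor tyrosine phosphatase gene, were held by LAP2alpha after 30 cycles alone. LAP2alpha calls after 30 cycles were common on the whole chromosome, with 56.6% of its other protein-coding genes held, against 32.3% of all protein-coding genes. Cluster 3 had 19 other genes within 1 Mb, of which lamin B1 and WT 3A6 after 30 cycles held 6 each. Its left neighbour 4930430A15Rik, 1.22 kb away, had the same calls as the receptors, and Lpcat4, an acyltransferase gene 82.5 kb to the right, had 0.

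The second region list of each library held islands called by SICER, a caller for shorter regions that gives the reads in each island. Few islands lay over the receptors. Over the 3 clusters and 12 libraries there were 4 islands. A lamin B1 island of 28 kb after 30 cycles (chr2:89815001-89843000, 940 reads) covered Olfr1260, Olfr1261 and Olfr1262. A lamin B1 island of 28 kb in cluster 1 (916 reads), a WT 3A6 island of 10 kb in cluster 1 after 12 cycles (196 reads) and a KO 3A6 island of 16 kb in cluster 3 after 12 cycles (292 reads) covered 0 receptors. Over the whole chromosome lamin B1 had 17 of its 7665 islands after 12 cycles and 29 of 8751 after 30. The latter were 0.16 islands per Mb, against 3.32 in the genome, and 2 of the 29 lay in the clusters. For lamin B1, few islands over the receptors thus cannot be set apart from few on the chromosome. WT 3A6 had 40 of 6853 on the chromosome after 30 cycles, and WT N18 had 199 of 6627. LAP2alpha had 450 of 8950 after 12 cycles and 800 of 5405 after 30, with 0 in the clusters. No share of all protein-coding genes is given for islands.

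Other genes of the olfactory system were followed in the same way. Of 19 genes that serve the receptors in olfactory neurons, lamin B1 held 0 after 12 cycles (7.78% over all protein-coding genes) and 1 after 30 (16.8%), and 3A6 in WT after 30 cycles held 0 (9.40%). The one held by lamin B1 was Cnga2, on the X chromosome, which encodes a subunit of the cyclic nucleotide-gated channel of olfactory cilia. Of the 9 transduction genes (Gnal, Gng13, Ric8b, Adcy3, Cnga2, Cnga4, Cngb1, Ano2 and Omp), LAP2alpha held 4 after 12 cycles, against 35.9% of all protein-coding genes, and Adcy3, the adenylyl cyclase of the pathway, was held in 7 libraries. Among 7 genes of receptor choice (Lhx2, Ldb1, Ebf1, Emx2, Atf5, Kdm1a and Lbr) LAP2alpha held 4 after 12 cycles and 3 after 30, against 35.9% and 32.3%. In lists this short such counts cannot be set apart from the shares over all genes. Lhx2, a homeodomain factor gene on chromosome 2 to the right of cluster 1 (chr2:38194801-38225253), was held by LAP2alpha at both sonications and by WT N18 after 12 cycles. Lbr, the gene of the lamin B receptor, was held by LAP2alpha and WT N18 after 12 cycles. Of the 3 export genes Rtp1, Rtp2 and Reep1, Rtp1 was held once, by N18 in KO after 12 cycles. The 15 trace amine-associated receptor (Taar) genes, a second family of olfactory receptors in an array on chromosome 10, were held in 0 of the 12 libraries.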

How the data were processed

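ChIP-seq region lists of 12 libraries were analysed. Per the labels and the study's methods, adapters were cut by the authors with cutadapt and alignment to mm9 was done with Bowtie2 2.1.0. The authors then removed reads with a mapping quality under 20 and duplicates, reduced ChIP reads to the number of the input with Picard, and called regions against input. The deposited EDD lists (11 kb bins, gap penalty 5, FDR 0.1) hold a score for each domain. The deposited SICER 1.1 lists (window 1000 bp, gap 3000 bp, FDR 0.01) hold read counts per island, not normalized. Gene cover was computed with pandas 2.3.3 and checked on simulated regions. Genes were those of GENCODE vM1, 1 record per symbol, and all 90551 regions lay within the chromosome ends of the mm9 genome. Coding identity came from global alignment with edlib 1.3.9.post1, in place of the planned protein identity. Genes named were the ends of clusters, those with most and fewest calls (up to 3 each), those cut by an edge, the runs and pairs described, the neighbours and a list of olfactory genes, in which Taar7 and Taar8 stand for their lettered copies; other genes were named after their values were seen. Members and lists were chosen with earlier results of these data known. With 1 library per group, no test was run. The 4 inputs and 8 histone-mark samples were not analysed here.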

Additional observations from a re-analysis of the deposited data

Results flagged for a closer look

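Antibody 3A6 gave opposite directions at the 2 sonications and in the 2 genotypes. In cluster 1 the percent of receptors held, KO minus WT, was 64.3 percentage points after 12 cycles and -100 after 30, and 30 minus 12 cycles it was 100 in WT and -64.3 in KO. Over all 286 receptors KO minus WT was 6.29 after 12 cycles and -98.3 after 30, and 30 minus 12 cycles was 98.3 in WT and -6.29 in KO. Each of these rests on 1 library per group, and the difference was not tested. Over all protein-coding genes 3A6 held 21.1% in WT and 10.7% in KO after 12 cycles, and 9.40% and 12.6% after 30. The direction there also differed between sonications, the other way round. The 64.3 and 6.29 rest on 1 domain of 0.528 Mb and become 0 with domains scored above the library median or with SICER islands, so that the opposite direction is then gone. The 4 libraries lay on 2 lanes, 1 for each sonication, so that sonication and lane cannot be told apart.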

How the results depend on the processing

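Of 600 recomputed values, 525 stayed within the 95% exact binomial interval of the reported percent or within 1.5 times the reported count, and 75 moved. That interval treats genes as independent, which neighbours under a shared domain are not. It served only as a yardstick for a change and does not measure uncertainty. An overlap of 1 bp, the whole gene length, the transcription start site, Olfr genes of every biotype and cluster gaps of 500 kb or 2 Mb moved 0 values. Both gaps gave the same 3 clusters, so the 36 values of each could not move. A domain edge cut only Olfr987, in WT 3A6 after 30 cycles. The 1 bp, whole-length and start-site settings therefore had little room to move, and the 525 overstates stability. The 281 receptors that 3A6 held in WT alone after 30 cycles stayed 281 with domains whose score, not divided by length, was above the library median. Those domains moved cluster 1 to 0% for 3A6 in KO and lamin B1 after 12 cycles and for WT N18 and lamin B1 after 30 cycles, and cluster 2 to 0% for LAP2alpha after 30 cycles. Over all receptors they gave 86.4% and 88.8% for lamin B1 after 12 and 30 cycles, 9.79% for LAP2alpha after 30 cycles, and 0% for KO 3A6 after 12 and WT N18 after 30 cycles. The 12 genes that N18 held in WT alone and the 18 that 3A6 held in KO alone became 0, as did the 12 and 18 in the comparison of sonications, and LAP2alpha held 28 after 30 cycles alone. With domains above the median score per Mb, chosen after seeing the data, the 281 became 65, since the domain over cluster 2 dropped out. Over all receptors this gave 22.7% for WT 3A6, 88.8% for lamin B1 and 9.09% for LAP2alpha after 30 cycles, 12.9% for lamin B1 after 12 cycles, and 0% for WT N18 after 30 and KO 3A6 after 12 cycles, where the 12 and 18 genes again became 0. Domains of 500 kb or more moved LAP2alpha after 30 cycles to 3.17% in cluster 2 and 12.2% over all receptors, and WT N18 after 30 cycles to 0% in cluster 1 and over all receptors. With SICER islands, whether 50% of a gene or 1 bp was asked for, every percent above 0 became 0%, except lamin B1 after 30 cycles, at 1.36% in cluster 2 and 1.05% over all receptors. With 1 bp every count of genes lost, gained, kept or held at 1 or both sonications became 0, except 3 genes held by lamin B1 after 30 cycles alone. Shares over all protein-coding genes were not recomputed under any of these settings, so the falls cannot be set against a background. Beyond the way each setting drops regions, the cause was not tested. No paired analysis was possible because each group had 1 library and no replicate number, and for the same reason no library could be left out. EDD bins of 11 kb exceed the median receptor gene length of 951 bp, domains span many genes, and the lists give no signal inside or outside a domain.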
